A study of Mus musculus with 8 samples.

Results

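The proteasome subunit genes were taken from the protein-coding mouse genes whose symbol begins with *Psm*, a letter from a to g and a number, and not every such gene is covered. Of 37998 genes with a transcript in the count table, 49 were taken as members, and 46 of these had more than 1 CPM (counts scaled to a common library size) in 4 libraries or more and were among the 16466 genes tested. All samples came from the primary motor cortex (M1) of male Swiss Webster mice aged P49 to P53, injected 4 weeks earlier (P21 to P25) with lentivirus. The virus carried mCherry and an shRNA behind the *Synapsin I* promoter, which is active in neurons, and the shRNA was *Fezf2 shRNA* for 4 libraries and *non-silencing shRNA* for the 4 control libraries. M1 was dissected by its mCherry with every layer and the meninges, so that transduced neurons were measured together with untransduced neurons, glia and vessels. The record gives 4 animals of each treatment, each library was taken as 1 animal, and the comparison asks whether less *Fezf2*, a transcription factor of deep-layer projection neurons, goes with other levels of proteasome transcripts.

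The proteasome is the protease that degrades ubiquitin-tagged proteins in the cytosol and nucleus. Its barrel, the 20S core, stacks rings of alpha subunits, which gate the entrance, and rings of beta subunits, some of which carry the active sites. The 19S particle caps the barrel, where ubiquitin receptors bind the substrate, a deubiquitinase removes the tag and a ring of ATPases unfolds the chain and feeds it in. Other caps, an inhibitor and dedicated assembly chaperones complete the family, and in neurons proteasome activity is known to take part in synaptic protein turnover and plasticity. Transcription of the subunit genes is known to be coordinated, and the transcription factor NRF1, encoded by *Nfe2l1*, raises it through antioxidant response elements in their promoters.

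No proteasome gene passed the threshold between treatments, levels differed widely among subunits, and the fold changes of the family followed the genomic span of each gene. Short members were mostly lower with *Fezf2 shRNA* and long members mostly higher, and the medians of all genes tested went the same way. Within each treatment 1 library held high levels of most 20S transcripts.

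Because subunits of 1 complex were measured together, the bases before the start sites of 4 members are shown, chosen because *Psma2* had the smallest p of the family, *Psmd14* was the longest 19S gene, and the catalytic genes *Psmb5* and *Psmb6* hold the antioxidant response element searched for. Each run is the 250 bases before the RefSeq start, 5′ to 3′ along the gene (RefSeq, GRCm38.p6), with matches to TGACNNNGC (the antioxidant response element), CCAAT and CGGAAG (the core of sites for ETS factors) on either strand in capitals. The window of *Psma2* is chr13:14612992-14613241 on the plus strand, and that of *Psmd14* is chr2:61711444-61711693 on the plus strand. Those of the catalytic genes are chr14:54617996-54618245 on the minus strand for *Psmb5* and chr11:70525107-70525356 on the plus strand for *Psmb6*. The GENCODE transcripts of *Psmb5* and *Psma2* start inside their windows, at 54618022 and 14613240.
*Psma2*: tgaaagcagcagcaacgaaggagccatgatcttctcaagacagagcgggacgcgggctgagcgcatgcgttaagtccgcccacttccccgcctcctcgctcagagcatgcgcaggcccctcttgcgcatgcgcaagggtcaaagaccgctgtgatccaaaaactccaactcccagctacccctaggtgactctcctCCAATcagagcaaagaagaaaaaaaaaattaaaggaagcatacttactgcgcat
*Psmd14*: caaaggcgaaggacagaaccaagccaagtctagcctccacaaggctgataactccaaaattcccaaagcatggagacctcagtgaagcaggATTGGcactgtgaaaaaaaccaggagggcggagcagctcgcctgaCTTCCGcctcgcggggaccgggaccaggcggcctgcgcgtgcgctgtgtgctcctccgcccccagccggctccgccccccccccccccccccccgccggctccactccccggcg
*Psmb5*: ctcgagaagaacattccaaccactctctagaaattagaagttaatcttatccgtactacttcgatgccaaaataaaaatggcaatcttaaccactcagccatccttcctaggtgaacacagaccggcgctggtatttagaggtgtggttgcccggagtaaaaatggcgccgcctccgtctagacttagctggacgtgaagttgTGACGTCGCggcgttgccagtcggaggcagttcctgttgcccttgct
*Psmb6*: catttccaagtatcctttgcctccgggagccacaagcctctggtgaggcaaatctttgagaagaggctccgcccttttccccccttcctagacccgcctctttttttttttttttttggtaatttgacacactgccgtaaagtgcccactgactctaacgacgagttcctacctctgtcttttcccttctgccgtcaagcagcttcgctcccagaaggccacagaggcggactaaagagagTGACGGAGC

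Of the members tested, 38 had a window in the RefSeq table, with 41 windows between them. TGACNNNGC, read on both strands, was in the windows of 5 members (*Psmb5*, *Psmb6*, *Psmc6*, *Psmd9* and *Psmd12*), or 12.2% of member windows against 10.2% of all 32851 windows. It begins 47 bases before the start of *Psmb5* and 9 before that of *Psmb6*. CCAAT was in 31.7% of member windows and 33.8% of all windows, and begins 54 bases before the start of *Psma2* and, on the other strand, 159 before that of *Psmd14*. CGGAAG, which was added to the search after the windows had been read, was in 48.8% of member windows (19 members) against 13.6% of all windows, and begins 114 bases before the start of *Psmd14*. No motif overlaps another in the windows printed, and a match of letters is a description and not a binding site.

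The libraries held 54640651 to 57962571 counts on the genes used. The targeted gene *Fezf2* had 686, 775, 733 and 696 normalized counts in control replicates 1 to 4 and 622, 585, 573 and 585 in *Fezf2 shRNA* replicates 1 to 4. All *Fezf2 shRNA* libraries lay below all controls, with means of 591 ± 21.2 (SD, n = 4) for *Fezf2 shRNA* and 723 ± 40.3 (SD, n = 4) for the controls. The fitted log2 difference was -0.29 (SE 0.0774, edgeR adjusted p = 0.119), where SE is the standard error of the fit, with an exact two-sided permutation p of 0.0286, the smallest that 4 against 4 libraries can give. DESeq2 gave -0.26 with an adjusted p of 0.0434, so that *Fezf2* passed the threshold by DESeq2 and not by edgeR. Neuronal markers summed to 3384 to 3731 CPM in the controls and 3465 to 3717 CPM with *Fezf2 shRNA*. All 6 oligodendrocyte markers were lower with *Fezf2 shRNA* (median log2 fold change -0.53, 0 past the threshold), with sums of 1073 to 2091 CPM in the controls and 805 to 1341 CPM with *Fezf2 shRNA*. Of 6 endothelial markers, 5 were lower (median -0.31, 0 past the threshold, sums of 40.2 to 60.7 CPM against 38.7 to 44.4 CPM). Astrocyte markers summed to 761 to 901 CPM against 704 to 829 CPM, and microglial markers to 125 to 149 CPM against 114 to 150 CPM. In bulk tissue fewer cells of a type and less RNA per cell cannot be told apart, and the part of these cell types in the proteasome values was not tested.

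Levels were compared between genes as CPM per kb of exonic bases, averaged over the 8 libraries (± SD). Among the 14 constitutive 20S subunits they ran from 8.50 ± 0.853 for *Psma2* to 38.4 ± 2.61 for *Psmb7*. The order depends on the bases counted. The transcript used for *Psma2* has 2911 exonic bases, against 766 to 1758 in the other constitutive 20S genes, and by CPM alone *Psma2* (24.7) lay above *Psmb5* (13.3). Per kb of genomic span *Psmb7* was the lowest of these 14 genes, at 0.794 CPM per kb, and *Psmb6* the highest, at 11.3. The 19S subunits ran from 9.37 for *Psmd11*, a lid subunit, to 34.3 ± 3.89 for the ATPase *Psmc3* per exonic kb, and per kb of span from 0.576 for *Psmd14* to 7.03 for *Psmd2*. Among the ATPases, which form 1 ring, *Psmc1*, *Psmc3* and *Psmc5* lay at 32.8 to 34.3 and *Psmc2* and *Psmc6* at 14.8 and 17.4, with *Psmc4* just above them per exonic kb, and the first 3 were also the highest per kb of span. The 3 higher genes differed by less than their SDs, which were 3.35 to 4.85. Per exonic kb the 3 base chaperones were low, at 2.57 to 3.91, as were the assembly chaperones *Psmg1*, *Psmg2* and *Psmg3* at 2.38 to 4.78. *Psmg4* stood at 21.3, but the transcript used for it has only 474 exonic bases, which raises a level per exonic kb.

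**Figure D1:**
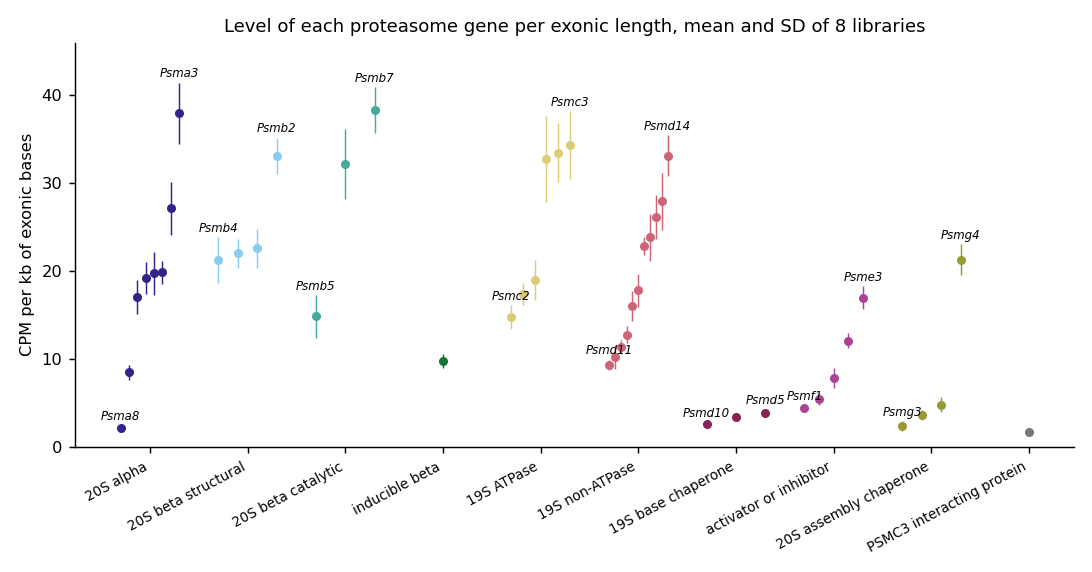
Level of each proteasome gene in CPM per kb of exonic bases (y axis, linear) by role in the complex (x axis), as the mean and SD of all 8 libraries; the lowest and highest gene of each role is named where it has several. The 20S subunits reach 38.4 and the 19S subunits 34.3, while the 19S base chaperones stay under 4.

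These levels are limited by what a count covers. For 11 members the table also holds a shorter transcript whose genomic interval is at most 5% exonic, and such intervals held many reads. In *Psmd14* an interval of 35231 bases, 0.511% of them exonic, held 37.4% of the reads in 39.7% of the span (30.5 reads per kb against 33.7 in the rest of the gene). In *Psmb2* the largely intronic interval, 1.83% exonic, held 84.3% of the reads in 93.7% of the span. There the interval had 44.9 reads per kb, against 124 in the rest of the gene. Exonic and intronic reads inside an interval were not separated, so part of its reads can be exonic. A value per exonic kb is therefore raised in genes with long introns, among them *Psmb7*, *Psmb2* and *Psmd14*, which have the highest levels of their roles.

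Of the 46 members, 0 passed the threshold (edgeR, adjusted p of at most 0.05 and a log2 fold change of at least 0.2 in size), as against 84 of all genes tested, or 0.510%. DESeq2 also called 0 of 46, where it called 4.32% of all genes. At an unadjusted p under 0.05, edgeR had 5 members, or 10.9%, against 15.9% of all genes, namely *Psma2*, *Psmd4*, *Psmc4* and *Psmb4* at lower levels with *Fezf2 shRNA* (8.70% of members, where 6.12% of all genes were lower at that p) and *Psmd14* at a higher level (9.75% of all genes). The 5 members became 10 without *Fezf2 shRNA* replicate 2, 3 without control replicate 4, 2 without replicate 3 of either treatment, and a single member when replicate 1 or 4 of *Fezf2 shRNA* was left out (1 in each case). The treatments did not overlap in 2 members, *Psma2* and *Psmd4*, both lower, or 4.35%, against 3.77% of all genes lower and 6.24% higher. The smallest adjusted p was 0.176, and the 95% interval of the log2 fold change stayed within 0.5 of 0 in 43 of 46 members, the exceptions being *Psma8*, *Psmg2* and *Psmg3*.

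The log2 fold change was below 0 in 35 of 46 members, with a median of -0.076, whereas 55.6% of all genes were below 0, with a median of -0.026. Leaving out 1 library moved the median of the members between -0.12 and -0.045. These are descriptions, and the family was not tested as a set.

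**Figure D2:**
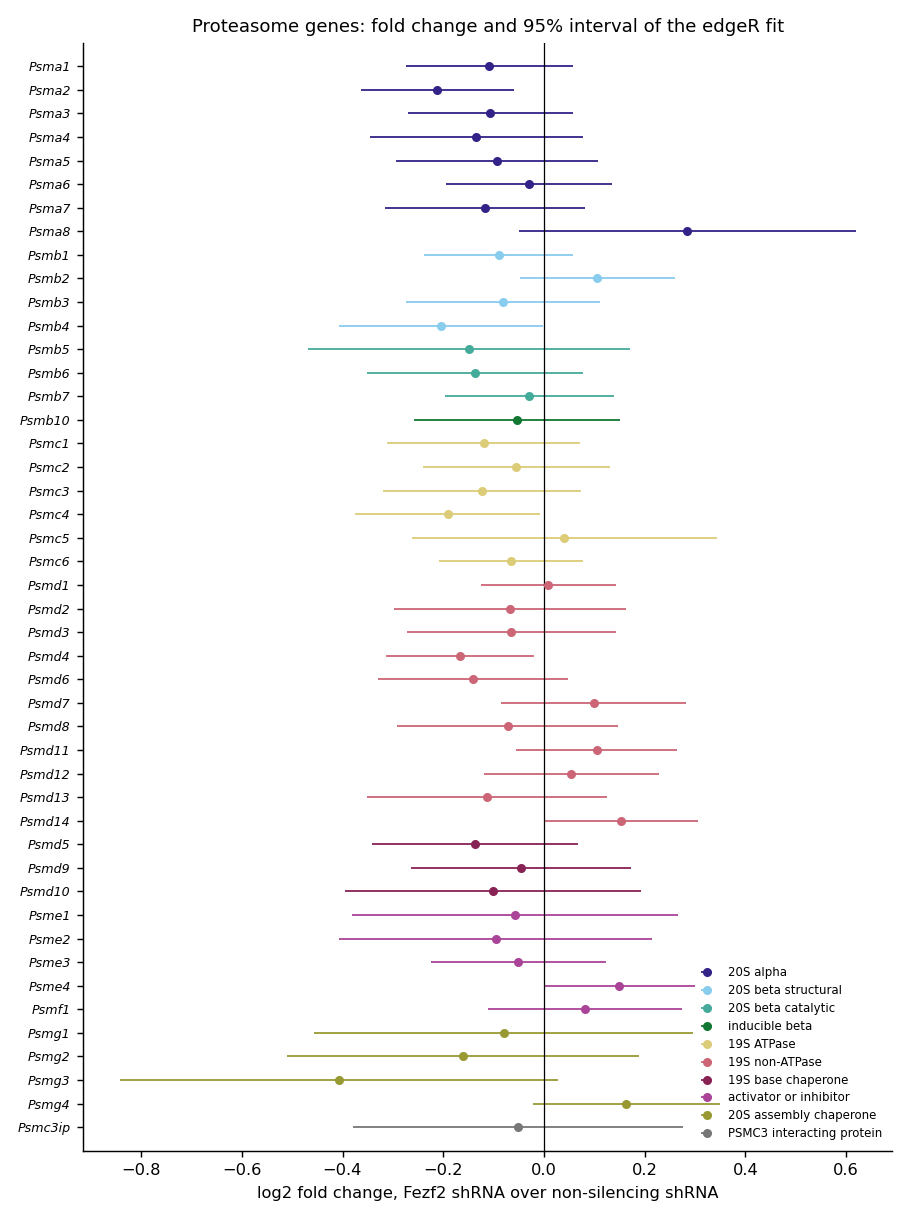
Log2 fold change (x axis, *Fezf2 shRNA* over *non-silencing shRNA*, edgeR) with its 95% interval for each of the 46 proteasome genes tested (y axis), coloured by role. In 35 genes the point lies below 0, and none passed the threshold on the adjusted p.

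The alpha subunits form the outer rings of the 20S core. *Psma2* (chromosome 13 from 14613240 to 14627636 in GRCm38, plus strand, 8 exons) had 1526, 1461, 1589.8 and 1393 normalized counts in control replicates 1 to 4 and 1266, 1351, 1327 and 1211 in *Fezf2 shRNA* replicates 1 to 4. Every control lay above every *Fezf2 shRNA* library, and the difference of the means was -13.7% of the control mean. The means were 1289 ± 63.0 (SD, n = 4) for *Fezf2 shRNA* and 1492 ± 84.5 (SD, n = 4) for the controls, and the log2 fold change was -0.21 (SE 0.0688, edgeR adjusted p = 0.176). The exact permutation p was 0.0286, the smallest possible, and the log2 fold change stayed between -0.24 and -0.18 with any 1 library left out. *Psma3*, the alpha subunit with the highest level per exonic kb, had 1914, 1769.7, 2164 and 1901 normalized counts in control replicates 1 to 4 and 1718, 1861, 1742 and 1876 in *Fezf2 shRNA* replicates 1 to 4. Control replicate 3 was the highest of its 8 values and the treatments overlapped, and the log2 fold change of -0.11 (SE 0.0743, edgeR adjusted p = 0.496) was -0.050 without that library. About 14.5% of its interval is shared with a transcript on the opposite strand, *3110056K07Rik*. The other alpha subunits of somatic cells, *Psma1*, *Psma4*, *Psma5*, *Psma6* and *Psma7*, had log2 fold changes of -0.13 (*Psma4*) to -0.031 (*Psma6*), all with overlapping treatments. *Psma6* ran from -0.063 to 0.017 with 1 library left out.

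*Psma8*, the alpha subunit of the testis proteasome, had the lowest level of the 20S genes (2.11 CPM per exonic kb) and the highest fold change of the family. It had 142, 203, 199 and 181 normalized counts in control replicates 1 to 4 and 225, 196, 242 and 222 in *Fezf2 shRNA* replicates 1 to 4. Control replicate 1 was low, and the other 3 controls lay at 181 to 203, a range that holds *Fezf2 shRNA* replicate 2. The log2 fold change was 0.28 (SE 0.152, edgeR adjusted p = 0.378), with a 95% interval of -0.050 to 0.62, and it was 0.18 without control replicate 1. The gene spans 56.1 kb with 1692 exonic bases.

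Of the structural beta subunits, which carry no active site, *Psmb4* had 1506, 1462, 1709 and 1385 normalized counts in control replicates 1 to 4 and 1283, 1511, 1294 and 1174 in *Fezf2 shRNA* replicates 1 to 4. *Fezf2 shRNA* replicate 2 lay among the controls, and the other 3 *Fezf2 shRNA* libraries lay below all controls. The log2 fold change was -0.20 (SE 0.0924, edgeR adjusted p = 0.311) and the exact permutation p was 0.114. *Psmb2*, the structural beta subunit with the highest level, was the 1 constitutive 20S gene with a fold change above 0, with 1454, 1577, 1651 and 1489.8 normalized counts in control replicates 1 to 4 and 1635, 1788, 1556 and 1663 in *Fezf2 shRNA* replicates 1 to 4. Its treatments overlapped, and the log2 fold change of 0.11 (SE 0.0699, edgeR adjusted p = 0.471) was 0.069 without *Fezf2 shRNA* replicate 2. It spans 32.1 kb, the second longest interval of the constitutive 20S genes after *Psmb7*. *Psmb1* and *Psmb3* had log2 fold changes of -0.090 and -0.081.

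The catalytic subunits carry the caspase-like (*Psmb6*), trypsin-like (*Psmb7*) and chymotrypsin-like (*Psmb5*) active sites, and none was separated between treatments. *Psmb6* had 1489.7, 1391, 1656 and 1512 normalized counts in control replicates 1 to 4 and 1289, 1662, 1278 and 1272 in *Fezf2 shRNA* replicates 1 to 4. *Fezf2 shRNA* replicate 2 was the highest of all 8 libraries, whereas the other 3 of its treatment lay close together below all controls. The log2 fold change was -0.14 (SE 0.0978, edgeR adjusted p = 0.507), and it was -0.24 without that library and -0.091 without control replicate 3. *Psmb7* had 2429, 2612, 2715 and 2362 normalized counts in control replicates 1 to 4 and 2397, 2677, 2607 and 2234 in *Fezf2 shRNA* replicates 1 to 4. The treatments overlapped almost entirely, and the log2 fold change was -0.029 (SE 0.0765, edgeR adjusted p = 0.881), with a 95% interval of -0.20 to 0.14. Its direction turned to 0.018 without *Fezf2 shRNA* replicate 4 and to 0.0059 without control replicate 3, and 11.7% of its interval is shared with *Nek6* on the opposite strand. *Psmb5*, the target of proteasome inhibitor drugs, had 908, 687, 929 and 637 normalized counts in control replicates 1 to 4 and 745, 813, 724 and 568 in *Fezf2 shRNA* replicates 1 to 4. The controls fell into a high and a low pair that enclosed 3 of the 4 *Fezf2 shRNA* libraries, and the log2 fold change was -0.15 (SE 0.145, edgeR adjusted p = 0.639). It went from -0.24 without control replicate 4 to -0.055 without replicate 4 of *Fezf2 shRNA*, and was -0.063 and -0.076 without control replicates 3 and 1.

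**Figure D3:**
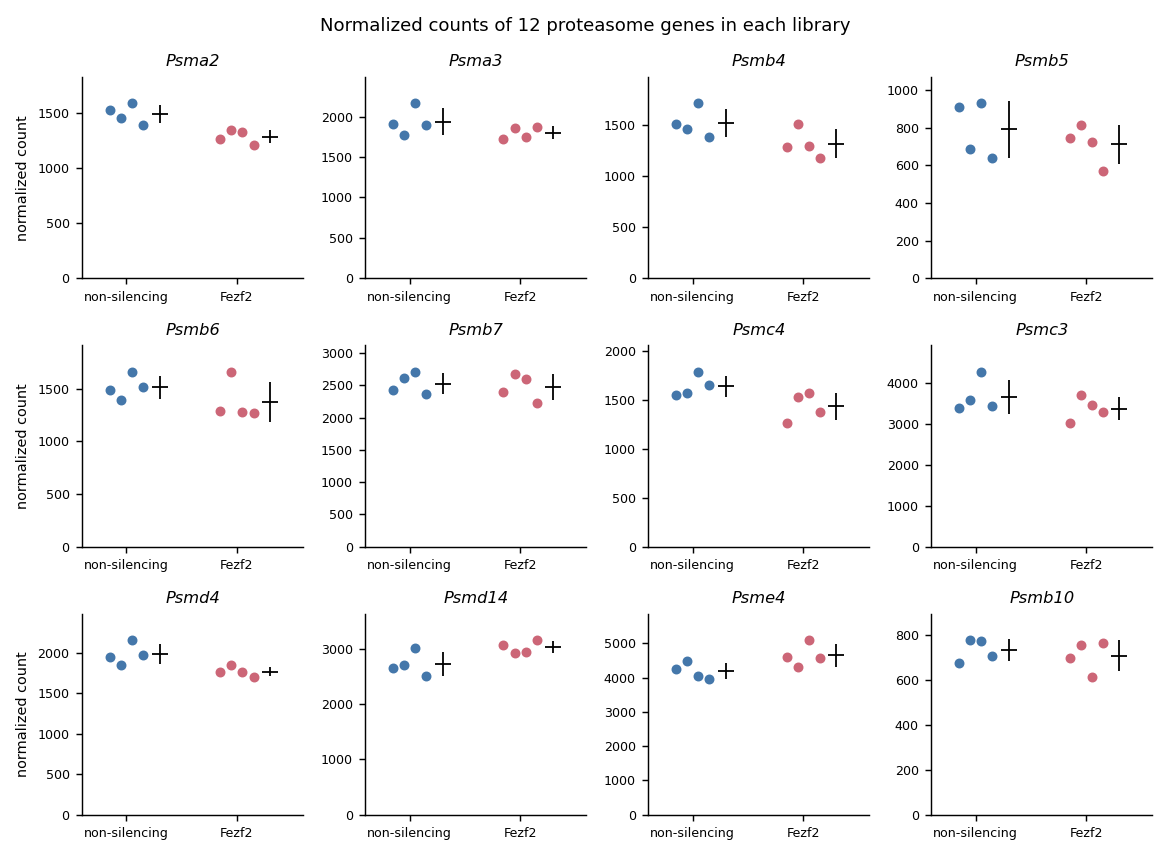
Normalized counts (y axis, linear from 0) of 12 proteasome genes in the 4 *non-silencing shRNA* and the 4 *Fezf2 shRNA* libraries (x axis), each library a point in replicate order, with the mean and SD to the right. Only *Psma2* and *Psmd4* have treatments that do not overlap, and in *Psmb6* a single *Fezf2 shRNA* library, replicate 2, lies above the other 3.

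Of the inducible beta subunits, which replace the constitutive catalytic ones in the immunoproteasome of immune and interferon-treated cells, not every one is covered here. *Psmb10* passed the filter, with a mean of 12.8 CPM. It had 678, 778, 774 and 706 normalized counts in control replicates 1 to 4 and 697, 755, 614 and 763 in *Fezf2 shRNA* replicates 1 to 4. The treatments overlapped, and the log2 fold change was -0.054 (SE 0.0927, edgeR adjusted p = 0.808). It turned to 0.0085 without *Fezf2 shRNA* replicate 3 and to 0.053 with the length offset, a correction of each library for its trend over gene length. All of its 2706-base interval lies inside *Gm16156*, an antisense gene with 26.8 CPM, so that its count cannot be assigned to *Psmb10* with certainty. *Psmb9*, the inducible counterpart of *Psmb6*, was under the filter, with 52, 10, 30 and 49 raw counts in control replicates 1 to 4 and 39, 71, 10 and 66 in *Fezf2 shRNA* replicates 1 to 4. It passed 1 CPM in 2 libraries, and the controls and *Fezf2 shRNA* libraries overlapped. The other members under the filter were *Psmb11*, the subunit of the thymus proteasome, with 27 to 53 raw counts, and *Psme2b* with 12 to 24. Just over the filter lay *Psmg3* with 1.57 to 2.87 CPM, *Psmc3ip* with a mean of 2.21 CPM and *Psma8* with 3.58.

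The 19S ATPases unfold the substrate. *Psmc4* had 1547, 1570.4, 1789.9 and 1649 normalized counts in control replicates 1 to 4 and 1268, 1528, 1573 and 1372 in *Fezf2 shRNA* replicates 1 to 4. Control replicates 1 and 2 lay within the range of the *Fezf2 shRNA* libraries and the other controls above it, and the log2 fold change was -0.19 (SE 0.0838, edgeR adjusted p = 0.298), with an exact permutation p of 0.0857. *Psmc3*, the ATPase gene with the highest level, had 3373, 3572, 4270.2 and 3429.9 normalized counts in control replicates 1 to 4 and 3017, 3691, 3457 and 3281 in *Fezf2 shRNA* replicates 1 to 4. Control replicate 3 stood above the 7 other libraries, and the log2 fold change of -0.12 (SE 0.0895, edgeR adjusted p = 0.515) was -0.041 without that library and -0.075 without replicate 1 of *Fezf2 shRNA*. Of the interval of *Psmc3*, 37.2% is shared with *Slc39a13* on the opposite strand. *Psmc1*, *Psmc2* and *Psmc6* were also below 0 and *Psmc5* was at 0.040. Leaving out 1 library took *Psmc5* to between -0.088 and 0.16 and *Psmc2* to between -0.084 and 0.027.

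Among the 11 other 19S subunits 6 were below 0 and 5 above. *Psmd4*, a ubiquitin receptor (chromosome 3 from 95032697 to 95042552, minus strand, 10 exons), had 1951, 1848, 2157 and 1974 normalized counts in control replicates 1 to 4 and 1760.1, 1841, 1762 and 1700.0 in *Fezf2 shRNA* replicates 1 to 4. The lowest control and the highest *Fezf2 shRNA* library were 1848 and 1841, so the treatments did not overlap but came within less than an SD of each other. The means were 1766 ± 57.6 (SD, n = 4) for *Fezf2 shRNA* and 1982 ± 128 (SD, n = 4) for the controls, and the log2 fold change was -0.17 (SE 0.0665, edgeR adjusted p = 0.260), with an exact permutation p of 0.0286.

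*Psmd14*, the deubiquitinase of the lid (chromosome 2 from 61711694 to 61800376, plus strand, 12 exons), went the other way, with 2658, 2698, 3021 and 2514 normalized counts in control replicates 1 to 4 and 3076, 2927, 2946 and 3161 in *Fezf2 shRNA* replicates 1 to 4. Control replicate 3 lay inside the range of the *Fezf2 shRNA* libraries, and the other 3 controls lay below it. The means were 3028 ± 111 (SD, n = 4) for *Fezf2 shRNA* and 2723 ± 214 (SD, n = 4) for the controls, and the fitted log2 fold change was 0.15 (SE 0.0690, edgeR adjusted p = 0.309) with an exact permutation p of 0.0857. Control replicate 3 was also the highest control for *Psmd4*.

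The base chaperones *Psmd5*, *Psmd9* and *Psmd10* help to build the 19S base and are not part of the finished particle. *Psmd5* had 1122, 994, 1011 and 921 normalized counts in control replicates 1 to 4 and 856, 1029, 970.1 and 827 in *Fezf2 shRNA* replicates 1 to 4. The treatments overlapped, *Fezf2 shRNA* replicate 2 exceeding 3 of the 4 controls, and the log2 fold change was -0.14 (SE 0.0928, edgeR adjusted p = 0.483). It was -0.084 without control replicate 1 and -0.089 without replicate 4 of *Fezf2 shRNA*. *Psmd9* and *Psmd10* were at -0.046 and -0.10, and *Psmd9* ran from -0.091 to 0.014 with 1 library left out.

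*Psme4*, the nuclear activator PA200, has the longest interval of the family, 109 kb, and had 4250.1, 4486, 4056 and 3960.2 normalized counts in control replicates 1 to 4 and 4596, 4315, 5098 and 4571 in *Fezf2 shRNA* replicates 1 to 4. All but *Fezf2 shRNA* replicate 2 lay above every control. The log2 fold change was 0.15 (SE 0.0683, edgeR adjusted p = 0.316), with an exact permutation p of 0.0571. *Psme3*, a nuclear activator of the PA28 family and the activator with the highest level, had 2491, 2705, 2557 and 2617 normalized counts in control replicates 1 to 4 and 2673, 2779.9, 2307 and 2251 in *Fezf2 shRNA* replicates 1 to 4. *Fezf2 shRNA* replicate 2 lay above all controls and replicates 3 and 4 below them, and the log2 fold change was -0.051 (SE 0.0790, edgeR adjusted p = 0.784). It was -0.10 without *Fezf2 shRNA* replicate 2, and -0.014 and -0.0030 without replicates 3 and 4, and it turned to 0.036 with the length offset. The interferon-inducible activators *Psme1* and *Psme2* were at -0.058 and -0.10, and *Psmf1*, the inhibitor, was at 0.081. *Psme1* ran from -0.16 to 0.050 with 1 library left out.

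The 20S assembly chaperones had the widest range. *Psmg3* had 89.4, 145, 152 and 151 normalized counts in control replicates 1 to 4 and 98.1, 101, 99.4 and 107 in *Fezf2 shRNA* replicates 1 to 4. Control replicate 1 lay below all *Fezf2 shRNA* libraries, while the other 3 controls lay above them, and the log2 fold change of -0.41 (SE 0.197, edgeR adjusted p = 0.339), the lowest of the family, had a 95% interval of -0.84 to 0.027. It was -0.56 without that control, and 85.5% of the interval of *Psmg3* is shared with *Gm26938* on the same strand, so its counts are uncertain. *Psmg4*, its partner, had 561, 526, 509 and 549 normalized counts in control replicates 1 to 4 and 576, 555, 634 and 637 in *Fezf2 shRNA* replicates 1 to 4. Only *Fezf2 shRNA* replicate 2 lay below the highest control, and the log2 fold change was 0.16 (SE 0.0844, edgeR adjusted p = 0.363). *Psmc3ip* matches the naming rule but encodes a partner of PSMC3 that acts in meiotic recombination and is not a subunit. Its log2 fold change was -0.051 (SE 0.149, edgeR adjusted p = 0.893), with 123, 124, 139 and 119.6 normalized counts in control replicates 1 to 4 and 124, 124, 119.5 and 120.1 in *Fezf2 shRNA* replicates 1 to 4. The value was -0.0019 without control replicate 3 and turned to 0.053 with the length offset.

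The direction of the fold change went with genomic span. Of 39 members under 30 kb, 34 were below 0 (median -0.093), and of 7 members of 30 kb or more, 6 were above 0 (median 0.11). Over all genes tested the median was -0.10 under 10 kb (18 members, median -0.11), -0.062 from 10 to 30 kb (21 members, -0.081), 0.025 from 30 to 100 kb (6 members, 0.11) and 0.15 from 100 to 300 kb, where *Psme4* had 0.15. The Spearman correlation of span and log2 fold change was 0.502 across the 46 members and 0.430 across all 16466 genes, which share their libraries and are not independent. An offset fitted to each library over gene length took the median of the members from -0.076 to -0.014 and that of all genes from -0.026 to -0.013, with 27 members below 0 and 19 above (53.3% of all genes below 0). The offset was fitted to all genes tested, members among them, and removes their shared trend, so a weaker trend is built into it. The members under 30 kb then had a median of -0.023, with 25 of 39 below 0, and the 7 longer ones a median of 0.059, with 5 above 0. With the offset the log2 fold changes were -0.15 for *Psma2*, -0.086 for *Psmd4*, 0.059 for *Psmd14*, 0.033 for *Psme4* and -0.19 for *Fezf2*. Then 1 member had an unadjusted p under 0.05, against 10.2% of all genes. That member was *Psmg4*, higher with *Fezf2 shRNA* at a log2 fold change of 0.22 (edgeR unadjusted p = 0.0218, adjusted p = 0.400). *Psma2*, *Psmd4*, *Psmc4*, *Psmb4* and *Psmd14*, under 0.05 without the offset, were all above it with the offset.

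**Figure D4:**
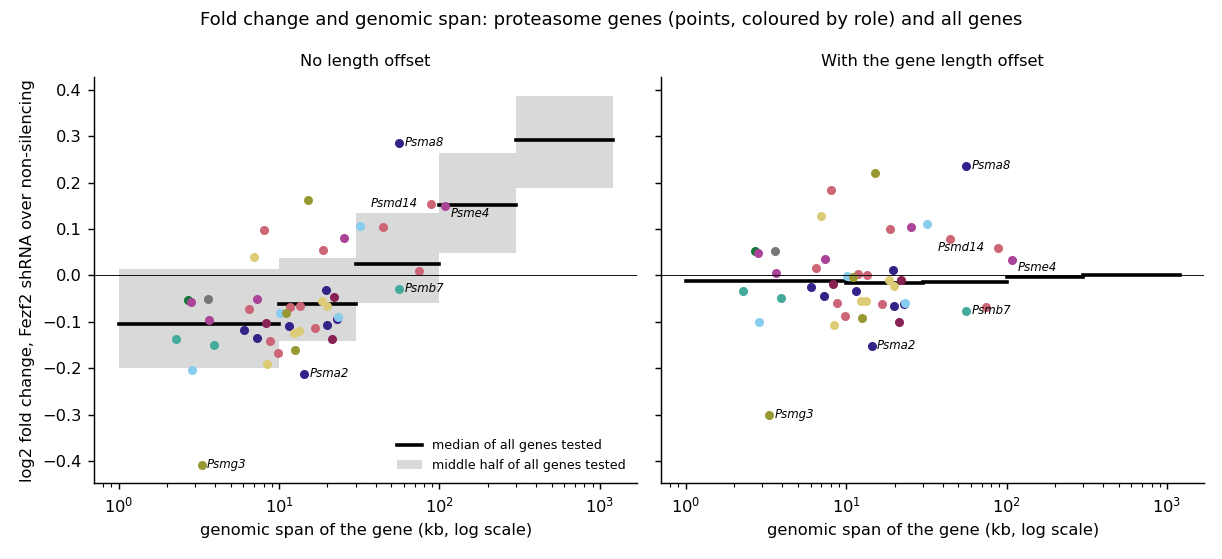
Log2 fold change (y axis, *Fezf2 shRNA* over *non-silencing shRNA*) against genomic span in kb (x axis, log scale) for the 46 proteasome genes (points, coloured by role as in the plot of fold changes), without (left) and with (right) the gene length offset; black lines are medians of all genes tested in each class of span and grey bands (left) their middle 50%. On the left the medians of the members go from -0.11 under 10 kb to 0.11 at 30 to 100 kb, and those of all genes from -0.10 to 0.025; on the right the medians of all genes lie between -0.016 and 0.0011, and those of the members between -0.023 and 0.069. The offset was fitted to these same genes, so medians of all genes near 0 on the right follow from the fit. The outer classes, under 10 kb and over 300 kb, are drawn to the edge of the plotted range.

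Within genes, the largely intronic interval had a higher ratio of *Fezf2 shRNA* to control means than the rest of the gene in 9 of 11 members, the exceptions being *Psma5* and *Psmd1*. The share over all genes with such an interval is not given here, so the count cannot be called particular to the members. In *Psmd14* the interval had 1019, 977, 1043 and 884 normalized counts in control replicates 1 to 4 and 1174, 1010.1, 1145 and 1352 in *Fezf2 shRNA* replicates 1 to 4, a log2 ratio of 0.26 against 0.092 for the rest. Only *Fezf2 shRNA* replicate 2 lay among the controls. In *Psme4* the interval had 836, 855, 850.3 and 749 in the controls and 953, 873, 1186 and 957 with *Fezf2 shRNA*, with all *Fezf2 shRNA* libraries above all controls and a log2 ratio of 0.27 against 0.12 for the rest. In *Psmd4*, a short gene, both log2 ratios were below 0, at -0.11 for the largely intronic interval and -0.20 for the rest. The differences between interval and rest were not tested, and their medians over the 11 members were 0.016 and -0.0011.

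Most members were highest in the same library of each treatment. Control replicate 3 was the highest control in 27 of 46 members, where it was the highest in 25.2% of all genes, and in 13 of the 14 constitutive 20S subunits. *Fezf2 shRNA* replicate 2 was the highest of its treatment in 26 of 46 members (28.2% of all genes) and in 11 of those 14. The 20S subunits lay a median of 0.14 and 0.13 above the mean of their treatment on the log2 scale in these libraries. The summed normalized counts of the 14 subunits were 20797, 20151, 22978 and 20544 in control replicates 1 to 4 and 19187, 21671, 19793 and 18567 in *Fezf2 shRNA* replicates 1 to 4. The sums differed by -6.22% with *Fezf2 shRNA*, with overlapping treatments (19804.5 ± 1341 against 21117 ± 1269, SD, n = 4 each). The sums of the 19S subunits were 37418 ± 1791 against 38551 ± 2704 (-2.94%), and the ratio of 19S to 20S sums was 1.89 ± 0.0492 against 1.83 ± 0.110. Without control replicate 3 these differences were -3.38% for the 20S and -0.278% for the 19S subunits, and without *Fezf2 shRNA* replicate 2 they were -9.16% and -4.88%. The 19S difference lay between -0.278% and -5.41% with any 1 library left out, which was computed after seeing the data. Without control replicate 3 the median log2 fold change of the 46 members was -0.045 and without *Fezf2 shRNA* replicate 2 it was -0.12.

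**Figure D5:**
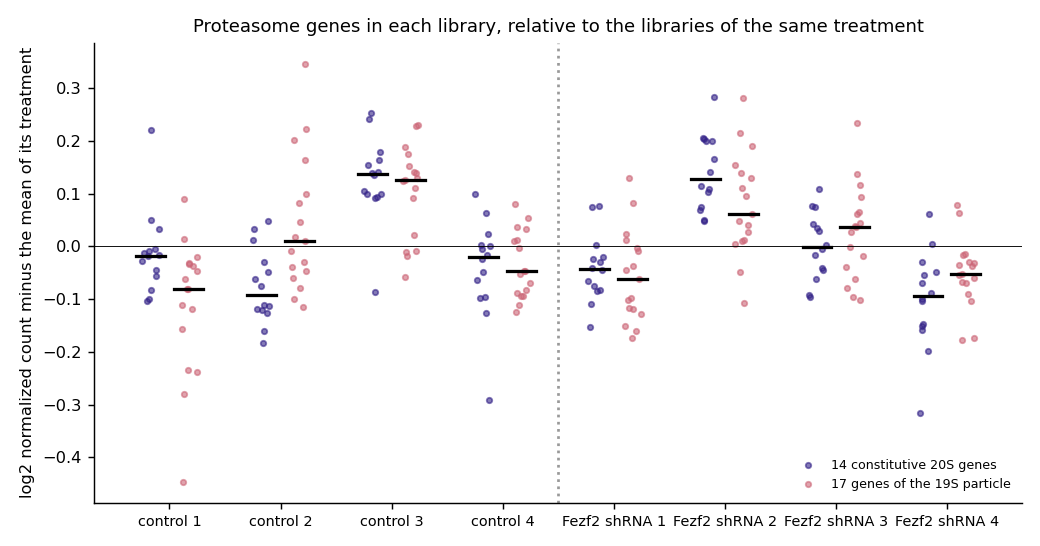
Log2 normalized count of each gene minus the mean of its treatment (y axis) in each of the 8 libraries (x axis), for the 14 constitutive 20S genes and the 17 genes of the 19S particle; each point is a gene and each black line a median. Control replicate 3 and *Fezf2 shRNA* replicate 2 have medians of 0.14 and 0.13 for the 20S genes, above those of the other 3 libraries of their treatment.

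None of the other pathway genes tested was past the threshold. Of 30 listed genes for proteasome partners, regulators, ubiquitin and its shuttles, 29 were tested, and 0 passed the threshold by edgeR. The log2 fold change was below 0 in 24 of them (median -0.051, and -0.027 with the length offset), where 55.6% of all genes were below 0 and their median was -0.026. An unadjusted p under 0.05 was reached by 2, both lower, where 6.12% of all genes were lower at that p. *Adrm1*, a ubiquitin receptor of the 19S particle, had 1286, 1208, 1452 and 1285 normalized counts in control replicates 1 to 4 and 1204, 1115, 1068 and 1031 in *Fezf2 shRNA* replicates 1 to 4. The treatments did not overlap, and the log2 fold change of -0.24 (SE 0.0794, edgeR adjusted p = 0.177) was -0.15 with the length offset. *Ube3c*, a ubiquitin ligase bound to the proteasome, had 4121, 4206, 4289 and 3837 normalized counts in control replicates 1 to 4 and 4240.3, 4485, 4838 and 4431 in *Fezf2 shRNA* replicates 1 to 4. It was higher in the mean, with overlapping treatments and a log2 fold change of 0.13 (SE 0.0629, edgeR adjusted p = 0.340), which was 0.015 with the length offset. *Nfe2l1*, named for its role and not by its p, had means of 8874 ± 424 (SD, n = 4) for *Fezf2 shRNA* and 9073 ± 589 (SD, n = 4) for the controls, for a log2 fold change of -0.032 (SE 0.0680, edgeR adjusted p = 0.849) that turned to 0.036 with the length offset. With 1 library left out that fold change lay between -0.058 and 0.015.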

How the data were processed

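Total RNA of M1 was sequenced as paired-end reads. Per the labels and methods, the authors aligned to mm10 with TopHat2 2.1.1 and deposited raw counts per Ensembl transcript from bedtools 2.26.0 multiCov over annotation intervals (versions from the submitters' processing notes). Counts therefore include introns; whether strand or multiply aligned reads were treated specially is not given in the sources used here. A second deposited table holds the authors' fold changes and p-values and was not used. Of 94647 transcripts, 91320 were found in GENCODE M21 (GRCm38); the other 3327 took 1.82% of counts and were left out. Each gene took its transcript with the lowest Ensembl number.

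Genes that exceeded 1 CPM in 4 or more libraries were tested with edgeR 4.0.16 in R 4.3.3 (TMM normalization, quasi-likelihood test, no covariate, Benjamini-Hochberg over all genes tested), with calls at an adjusted p up to 0.05 and a log2 fold change 0.2 or more from 0; the filter of the study was 8 CPM and is an alternative. To normalize, each count was scaled by the ratio of the mean to the library's effective size. Permutation tests are exact and two-sided. The length offset is a loess (span 0.3) of log ratios on gene length in each library. DESeq2 1.42.0 served as an alternative. The common biological coefficient of variation was 15.3% over all genes tested. The members' own coefficient of variation between libraries had a median of 7.57% in the controls and 8.48% with *Fezf2 shRNA*. The steps were tested on simulated counts. Python 3.11.15 was used for tables and figures.

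The members and lists were chosen with earlier results of these data known. In each role the member with the smallest p and that with the highest level per exonic kb were named, with the catalytic and inducible subunits and the extremes of fold change. The largely intronic intervals and the sums without single libraries were added after the data had been seen. Of the pathway genes those with the 3 smallest p were to be named. *Paaf1* was not analysed here, and some genes under these rules are not reported here.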

Additional observations from a re-analysis of the deposited data

Results flagged for a closer look

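In 6 of 94 groups of 4 libraries examined (the 46 members and *Fezf2* in each treatment), 1 library lay far from the other 3 by Dixon's criterion, which chance alone meets in about 1 in 20 groups. The groups of a treatment share the same 4 libraries and are not independent, so the count cannot be weighed against that rate. *Fezf2 shRNA* replicate 2 stood above the others of its treatment in *Psmb3* (1083 normalized counts against 890.1 to 909), *Psmb6* (1662 against 1272 to 1289) and *Psmd8* (2433 against 1832 to 1918). Control replicate 3 stood above the other controls in *Psmc2* (1769 against 1426 to 1438) and *Psmd6* (1602 against 1402 to 1415). Control replicate 1 stood below the other controls in *Psmg3* (89.4 against 145 to 152). The cause was not tested.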

How the results depend on the processing

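The count of proteasome genes past the threshold was 0, and that of the other pathway genes 0, under all 20 alternatives run, which covered normalization, filter, tool, threshold, transcript, offset, block and each library left out. The median log2 fold change of the members stayed below 0 under all 19 that give one (-0.12 to -0.014). Of 364 alternative values of the 19 named members, 355 kept their direction and side of the threshold. The 9 reversed values were in 4 members, *Psmb10* and *Psmb7* ranging from -0.092 and -0.068 upward with 1 library left out: with the length offset *Psmb10* was 0.053, *Psmc3ip* 0.053 and *Psme3* 0.036, with the replicate block and length offset they were 0.050, 0.055 and 0.033, *Psmb10* was 0.0085 without *Fezf2 shRNA* replicate 3, and *Psmb7* was 0.018 without *Fezf2 shRNA* replicate 4 and 0.0059 without control replicate 3. The cause of these changes was not tested.

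Over all genes the 84 past the threshold became 712 and 723 (DESeq2 with and without its prior), 208 (more than 8 CPM), 347 (adjusted p of at most 0.1 with no fold limit), 36 (widest transcript), 22 (library totals), 15 (TMM once the 10 most counted genes were left out) and 3 (gene length offset). Leaving out 1 library gave 1 to 224, with 224 without control replicate 2 and 1 without control replicate 1, control replicate 4 or *Fezf2 shRNA* replicate 1. Members at an unadjusted p under 0.05 went from 5 to 1 with the length offset, where the 1 was *Psmg4* and not one of those 5. With 1 library left out they went to 1 to 10 (10 without *Fezf2 shRNA* replicate 2, 1 without *Fezf2 shRNA* replicate 1 or 4). *Fezf2* passed the threshold with DESeq2, at -0.26 with and -0.28 without its prior. Samples of the same number were not treated as pairs in the main fit, and the sample labels state no pairing. The correlations of their deviations were 0.25, 0.011, -0.0074 and 0.065 for replicates 1 to 4. Samples of different numbers had -0.21 to 0.13. Such correlations cannot show whether the animals were paired. The replicate block gave 18 genes past the threshold, 0 of them members, and the block with the length offset gave 2, and 3 members at an unadjusted p under 0.05. Depth was lowest for *Psmg3*, *Psmc3ip* and *Psma8*, at means of up to 3.58 CPM.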
